A study of Homo sapiens with 24 samples.

Results

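The miRNAs described here are a set of GC-rich miRNAs that were high in OV90 spheroids: hsa-miR-4516, hsa-miR-4488, hsa-miR-3960, hsa-miR-6821-5p, hsa-miR-663a and hsa-miR-3648 (the prefix for human is left out from here on). They were chosen by name from earlier results of these data, for their base composition, their resemblance to ribosomal RNA and their high values in spheroid culture. Of 7 miRNAs named, 6 were found among the 2656 mature miRNAs of the count table, and miR-3687 was not analysed here. OV90 is an established epithelial ovarian cancer cell line. Small RNA was sequenced (miR-seq) from 24 libraries, in 6 groups of 4 replicates. Cells carried an inducible shRNA that was a negative control (shNeg, labelled wild type) or silenced RELA (shRELA) or RELB (shRELB), the genes of the NF-κB subunits RelA and RelB. Each of the 3 was grown in adherent conditions, in RPMI medium with tetracycline-free fetal calf serum, and as spheroids on ultra-low attachment surfaces in DMEM-F12 with serum replacement, EGF and FGF. All groups, controls included, received doxycycline at 1 µg/ml for 72 h to induce the shRNA. Attachment and medium changed together, so their effects on any miRNA cannot be told apart. MiR-seq does not read the RELA or RELB mRNA, so the silencing itself was not checked here. The labels do not say whether replicates came from separate cultures, and p-values therefore measure the spread between these samples, which may be technical.

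A miRNA is cut from a hairpin precursor, first in the nucleus by Drosha and then in the cytoplasm by Dicer, and the mature strand guides Argonaute to messages that pair with its seed, the bases after the first one. Ribosomal RNA is transcribed as a long 45S precursor, in which 18S, 5.8S and 28S are separated and flanked by transcribed spacers that are removed during maturation. A short read from rRNA that has the same bases as a mature miRNA is assigned to that miRNA if rRNA reads are not removed beforehand, and the sources used here do not say whether they were.

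The mature sequences of miR-4516, miR-4488, miR-663a and miR-3648 are shown because each also occurs in the 45S precursor. They were taken from RefSeq (GRCh38.p14), with the seed (bases 2 to 8) in capitals.
miR-4516: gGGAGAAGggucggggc
miR-4488: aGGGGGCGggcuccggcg
miR-663a: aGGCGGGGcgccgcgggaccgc
miR-3648: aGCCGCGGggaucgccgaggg
The 4 seeds differ from each other, so these miRNAs do not form a seed family. The mature sequences hold 76.5% G or C in miR-4516, 88.9% in miR-4488, 90.9% in miR-663a and 81.0% in miR-3648. The median over the 795 tested miRNAs with a mature sequence in RefSeq was 54.5%. Only the hairpins of miR-3960 and miR-6821-5p were used, which hold 87.9% and 75.7% G or C.

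The genes of these miRNAs lie apart in the genome (GRCh38.p14). Mature miR-4516 lies at chr16:2133120-2133136 on the plus strand, in an intron of PKD1, which runs on the opposite strand. Mature miR-4488 lies at chr11:61508599-61508616 on the plus strand, where no other gene was annotated. Mature miR-663a lies at chr20:26208243-26208264 on the minus strand, in an exon of its host transcript MIR663AHG. Mature miR-3648 is listed at chr21:8987026-8987046 on the plus strand, and its second gene copy, MIR3648-1, lies inside the rRNA gene RNA45SN2. The MIR3960 hairpin lies at chr9:127785833-127785923 on the plus strand, overlapping MIR2861 and an exon annotated as coding in CDK9. The MIR6821 hairpin lies at chr22:49962866-49962939 on the plus strand, in an intron of PIM3.

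All 4 mature sequences matched the 45S unit RNA45SN1 over their full length, on the strand that is transcribed. The matches are printed below from the GRCh38 genome (chromosome 21, plus strand) with 4 bases on each side, and capitals mark the bases shared with the miRNA.
miR-663a, 5′ external transcribed spacer, chr21:8435267-8435296: tcccAGGCGGGGCGCCGCGGGACCGCcctc
miR-3648, 5′ external transcribed spacer, chr21:8435730-8435758: gggcAGCCGCGGGGATCGCCGAGGGccgg
miR-4488, 28S, chr21:8441727-8441752: ccggAGGGGGCGGGCTCCGGCGggtg
miR-4516, 28S, chr21:8444266-8444290: cgggGGGAGAAGGGTCGGGGCggca
The same runs were present in all 3 annotated 45S units. Exact copies on the assembled chromosomes numbered 4 for miR-4516, 6 for miR-4488, 5 for miR-663a and 4 for miR-3648, of which 3 each lay in those units. A read of such a sequence therefore cannot be placed at the miRNA gene from its bases alone. Among the 2370 mature sequences in the RefSeq table, 17 (0.717%) shared a run of at least 16 bases with 45S. The median longest run was 8 bases and the 99th percentile 13, and no mature sequence had a run of 16 on the strand opposite to rRNA. Of the other members, the MIR3960 hairpin shared a run of 16 bases with 45S and the MIR6821 hairpin a run of 11, against a median of 9 and a 95th percentile of 12 over 1562 hairpins. Since a hairpin is longer than a mature strand, these runs are not comparable with those of the mature sequences.

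The values are estimated counts per mature miRNA, given as counts or as counts per 1000000 (CPM) after TMM scaling of the library sizes. Total counts were 3797175 to 8283549 in adherent and 959141 to 3580931 in spheroid libraries. The spheroid shNeg libraries were the shallowest, at 959141 to 1580252. An adherent library held 1043 to 1172 miRNAs with a count and a spheroid library 799 to 1005, except spheroid shNeg replicate 1, which held 432. Where no count was seen, as many as 3 could have been missed through counting error alone, equal to 0.362 to 0.790 CPM in adherent and 0.838 to 3.13 CPM in spheroid libraries before TMM scaling. Replicate 1 also stood apart in the members' own values, so the members' comparisons with spheroid shNeg are also given without it. Of 6 epithelial marker miRNAs (the miR-200 family and miR-205-5p), 5 averaged at least 1 CPM in both cultures, and their sum was 2486 to 9635 CPM in adherent and 3222 to 16340 CPM in spheroid libraries. The liver miRNA miR-122-5p was also abundant in both cultures, at 13730 to 29400 CPM. An average of at least 1 CPM was also reached by 4 of 4 stromal markers in both cultures. Their sum was 67.8 to 365 CPM in adherent and 69.8 to 309 CPM in spheroid libraries. Of 6 blood-cell markers, 4 reached it in adherent and 3 in spheroid cells, and of 3 muscle markers 1 did in each culture.

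The members were all but missing from adherent cells and were present in every group of spheroids. Together they held 1 to 10 counts in an adherent library and 124 to 3303 in a spheroid library. As a share of all counts, this was at most 0.000155% in adherent libraries. It was 0.0296% to 0.271% in spheroid shNeg, 0.00532% to 0.00950% in spheroid shRELA and 0.0145% to 0.0266% in spheroid shRELB libraries. These shares did not overlap between the 3 spheroid groups. In TMM-scaled CPM the members' sum was 227 to 2423 with shNeg, 58.1 to 99.2 with shRELA and 133 to 273 with shRELB, so that shNeg and shRELB overlapped and shRELA lay below both. Fewer cells with a miRNA and less of it per cell cannot be told apart in these bulk libraries. The members were chosen for high values in spheroids, so the differences between cultures are a description: calls are counted further on beside those of all miRNAs, with no p-value and as no evidence of a difference.

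**Figure D1:**
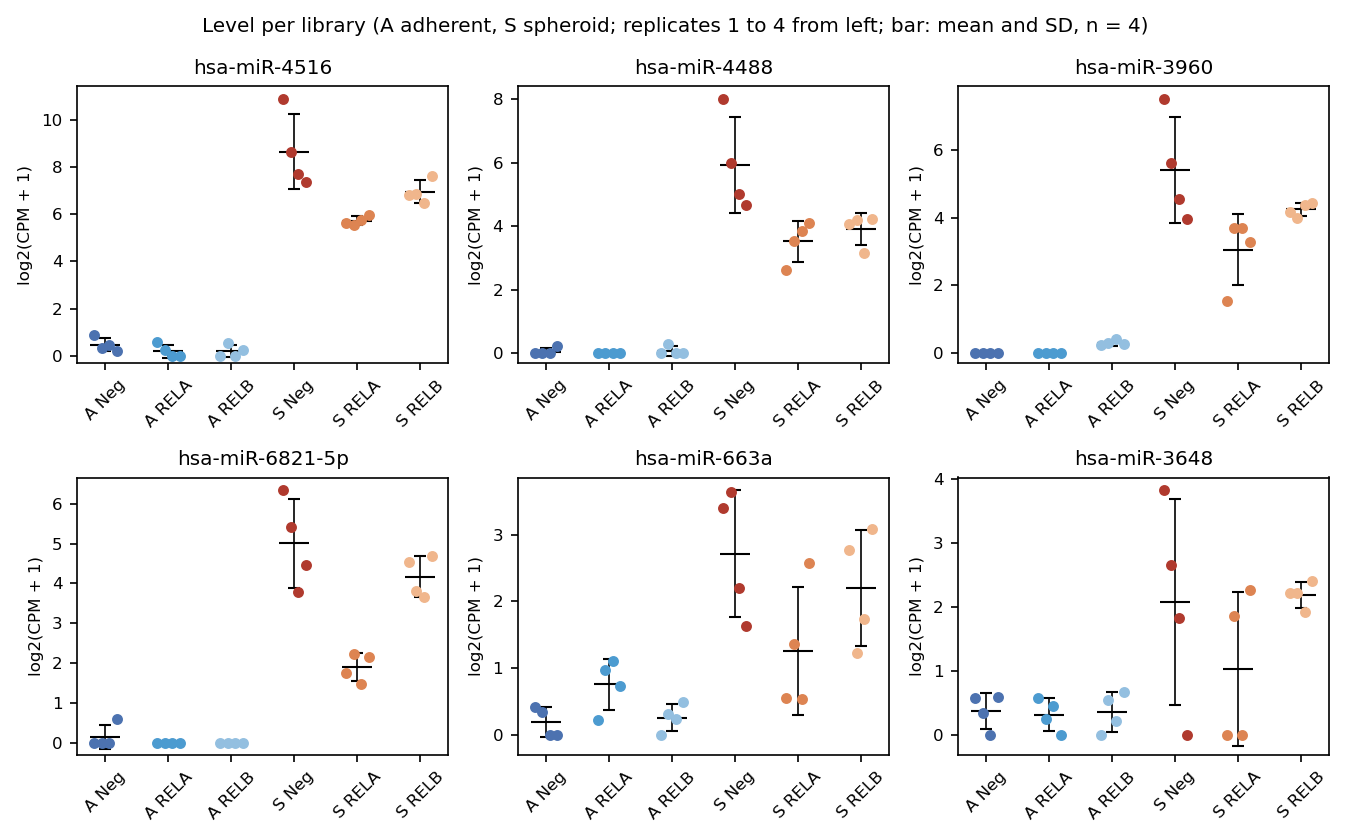
Level of each member in each library as log2(CPM + 1), for adherent (A) and spheroid (S) cells with shNeg (Neg), shRELA (RELA) or shRELB (RELB); points are replicates 1 to 4 from left to right, and bars are the mean and SD of the 4 log values. The adherent libraries lie near 0, and spheroid shNeg replicate 1 is the highest library for miR-4516 (1879 CPM), miR-4488 (257.4 CPM), miR-3960 (183.4 CPM), miR-6821-5p (79.9 CPM) and miR-3648 (13.2 CPM), but not for miR-663a.

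The most abundant member was miR-4516, whose match lies in 28S. It made up 60.3% to 83.1% of the members' counts in the spheroid libraries. Its levels were 1879, 391.8, 206.2 and 164.3 CPM in spheroid shNeg replicates 1 to 4. They were 48.3, 46.2, 53.3 and 61.9 CPM with shRELA and 111.8, 114.4, 88.8 and 197.9 CPM with shRELB. All 4 shRELA libraries were below all shRELB libraries, while the shNeg and shRELB ranges overlapped through shRELB replicate 4. In adherent cells, counts were 5, 1, 2 and 1 with shNeg, 3, 1, 0 and 0 with shRELA and 0, 2, 0 and 1 with shRELB. The lowest spheroid library, with 88 counts, thus lay above all adherent libraries.

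For miR-4488, also matched in 28S, the spheroid shNeg levels were 257.4, 63.4, 31.3 and 24.6 CPM. With shRELA they were 5.15, 10.5, 13.4 and 16.3 CPM, and with shRELB 15.8, 17.3, 7.91 and 17.8 CPM. The silenced groups overlapped each other and both lay below every shNeg library. Among the 12 adherent libraries, shNeg replicate 4 and shRELB replicate 2 had 1 count each, and the other 10 had none.

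For miR-3960, transcribed with miR-2861 from the same region, spheroid shNeg levels were 183.4, 48.1, 22.6 and 14.7 CPM. They were 1.87, 12.1, 12.1 and 8.74 CPM with shRELA and 16.9, 15.0, 20.0 and 20.6 CPM with shRELB. The shRELA libraries were below all others, and shRELB lay within the range of shNeg. In adherent cells the count was 0 in all shNeg and shRELA libraries and 1, 1, 2 and 1 in the shRELB libraries.

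For miR-6821-5p, whose hairpin lies within PIM3, a gene for a serine/threonine kinase, spheroid shNeg levels were 79.9, 42.0, 12.8 and 21.1 CPM. They were 2.34, 3.68, 1.79 and 3.42 CPM with shRELA and 22.1, 13.0, 11.6 and 24.9 CPM with shRELB. Every shRELA library lay below all libraries of the other spheroid groups. In adherent cells it was counted only in shNeg replicate 4, with 3 counts. The other arm of the hairpin, miR-6821-3p, had no count in any spheroid library and 1 count in each of 2 adherent libraries.

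The members matched in the 5′ external transcribed spacer, miR-663a and miR-3648, were the least abundant. The 12 spheroid levels of miR-663a ran from 0.448 to 11.5 CPM (median 2.96), and adherent counts reached 6, in the shRELA group (1, 5, 6 and 4). For miR-3648, spheroid levels ran from 0 to 13.2 CPM (median 3.22), with no count in shNeg replicate 4 and shRELA replicates 1 and 3. Adherent counts of miR-3648 reached 3. Adherent and spheroid shRELA libraries overlapped for both of these members.

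Pooled over the 4 libraries of a group, the ratio of spheroid to adherent CPM for the shNeg groups was 1444 for miR-4516 (95% counting interval 760 to 3160) and 1856 for miR-4488 (332 to 73440, on 1 adherent count). For miR-3960, with no adherent shNeg count, spheroids were at least 441-fold higher, set against a floor of 3 counts over the group. Ratios were 256 (86.3 to 1249) for miR-6821-5p, 44.4 (14.1 to 225) for miR-663a and 15.0 (6.46 to 40.5) for miR-3648. These intervals cover counting error only, not the spread between libraries. Without spheroid shNeg replicate 1, the ratios were 577 for miR-4516, 809 for miR-4488, at least 193 for miR-3960, 166 for miR-6821-5p, 37.7 for miR-663a and 7.75 for miR-3648. Single adherent libraries also set the size of some: without shNeg replicate 4, which held its only count, miR-4488 was at least 449-fold higher. Without adherent shNeg replicate 1, the ratio was 2323 for miR-4516 and 95.2 for miR-663a.

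In the shRELA groups the ratio was 300.0 (116 to 1106) for miR-4516, and spheroids were at least 88.0-fold higher for miR-4488, 65.1-fold for miR-3960 and 21.1-fold for miR-6821-5p. It was 6.34 (2.33 to 19.9) for miR-3648 and 2.85 (1.37 to 5.98) for miR-663a. Without spheroid shRELA replicate 4, these last ratios were 3.0 and 1.13, and without adherent shRELA replicate 1 that of miR-4516 was 878. In the shRELB groups the ratio was 957 (327 to 4645) for miR-4516, 322 (56.9 to 12780) for miR-4488, 76.7 (32.3 to 239) for miR-3960, 23 (8.39 to 87.9) for miR-663a and 13.0 (5.46 to 37.5) for miR-3648, and miR-6821-5p was at least 129-fold higher. Without adherent shRELB replicate 2 that of miR-4516 was 2288, and miR-4488 was at least 85.4-fold higher. Without replicate 4 of either culture, the shRELB ratio of miR-663a was 35.1 (adherent) or 14.9 (spheroid), and without the adherent one that of miR-3648 was 19.9. With bounds entered as values, the median ratio of the 6 members was 348 for shNeg (179 without spheroid shNeg replicate 1), 43.1 for shRELA and 103 for shRELB.

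A model of all 24 libraries was fitted to the 905 miRNAs that reached 1 CPM in 4 or more libraries, using edgeR's quasi-likelihood test. All 6 members passed this filter, through their spheroid libraries, so the numbers that follow do not support the difference between cultures. A miRNA was called at a false discovery rate (FDR) below 0.01 with a fold change above 2. Higher in spheroids were 6 of 6 members for shNeg (21.3% of all miRNAs tested were called higher), 4 of 6 for shRELA (16.8%) and 6 of 6 for shRELB (13.6%). The exceptions with shRELA were miR-663a and miR-3648. Without spheroid shNeg replicate 1, 5 of 6 were called for shNeg, all but miR-3648. The median fitted log2 fold change of the members was 8.99, 7.19 and 6.79 for shNeg, shRELA and shRELB, and that of all miRNAs tested was -0.26, 0.07 and -0.00281. For shNeg without replicate 1 these medians were 8.06 and -0.16. With shRELA, miR-3960, miR-4488 and miR-6821-5p had no adherent count, as had miR-3960 with shNeg and miR-6821-5p with shRELB. The size of such fitted values is set by the model rather than by counts. The members' fitted median was higher with shRELA than with shRELB, while their median pooled ratios had the reverse order (43.1 and 103). For scale, miR-30e-5p, the study's reference for qRT-PCR, averaged 1246 ± 69.0 CPM in adherent shNeg and 386 ± 83.8 CPM in spheroid shNeg libraries (SD, n = 4).

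Silencing RELA or RELB was compared with shNeg to see how the NF-κB subunits bear on miRNA levels. Which shRNA groups served in the choice of members is not stated. The shNeg libraries may be among them, so these comparisons are descriptions. In spheroids with shRELA, 4 of 6 members were called lower, against 7.62% of all miRNAs, namely miR-6821-5p, miR-4516, miR-4488 and miR-3960. Their log2 fold changes were -3.77 (SE 0.56), -3.65 (SE 0.49), -3.03 (SE 0.53) and -2.94 (SE 0.57). In the absence of shNeg replicate 1, the same 4 differences were -3.14, -2.27, -1.78 and -1.70. The values for miR-663a and miR-3648 were -1.75 (SE 0.76) and -1.65 (SE 0.91), neither called, and without replicate 1 they were -1.51 and -0.65. The median over the 6 members was -2.99 (-1.74 without replicate 1), and that over all miRNAs was 0.09 (0.000454). The 4 members called also had all shRELA libraries below all shNeg libraries, as did 9.17% of all miRNAs.

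With shRELB, 3 of 6 members were called lower in spheroids, against 6.08% of all miRNAs. These were miR-4488 at -2.66 (SE 0.52), miR-4516 at -2.36 (SE 0.46) and miR-3960 at -1.88 (SE 0.53). Without shNeg replicate 1 they were -1.41, -0.98 and -0.64, and only miR-4488 was called. The log2 fold change of miR-6821-5p was -1.11 (SE 0.47), that of miR-663a -0.63 (SE 0.71) and that of miR-3648 -0.51 (SE 0.84), none of them called. Without replicate 1 these were -0.47, -0.39 and 0.48. Of the 6 members, 1 (miR-4488) had all shRELB libraries below all shNeg libraries, as did 5.41% of all miRNAs. The 2 comparisons share their shNeg libraries. Depth moved with these groups, since the spheroid shNeg libraries held fewer counts than any spheroid library of the silenced groups, and its part in the result was not tested. In adherent cells, no member was called with shRELA (3.76% of all miRNAs called in either direction) or with shRELB (7.07%). Members had at most 6 counts in an adherent library, too few for these comparisons to show that a change was absent.

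**Figure D2:**
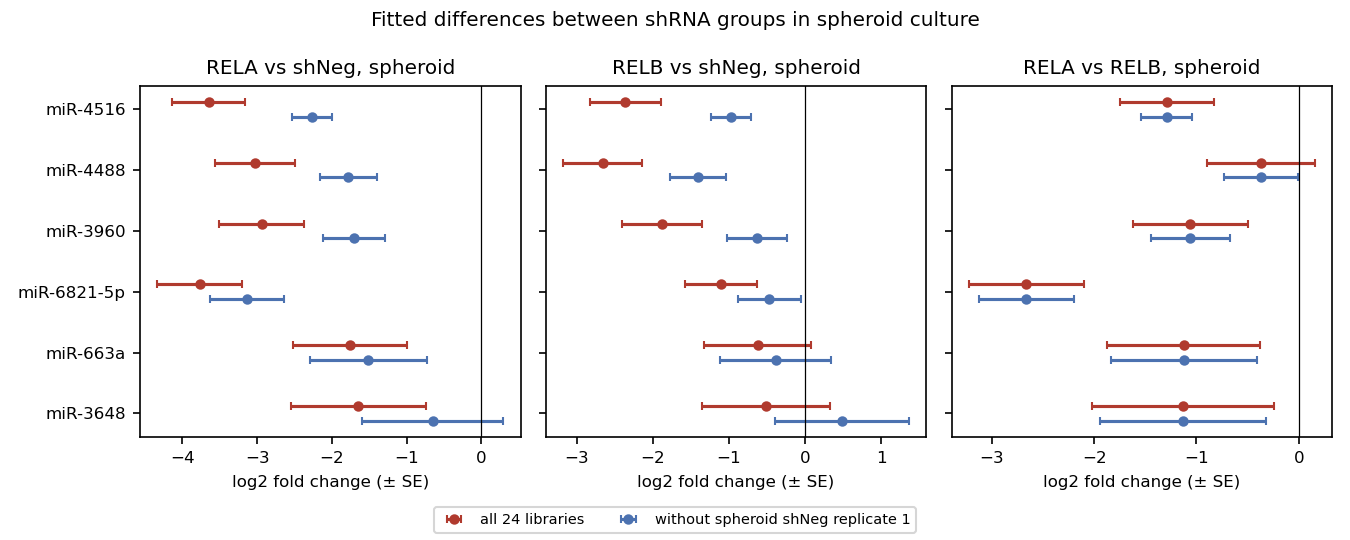
Fitted log2 fold change of each member between shRNA groups in spheroid culture, with its SE, from all 24 libraries (red) and without spheroid shNeg replicate 1 (blue). Leaving out that library brings most differences from shNeg nearer to 0, as for miR-4516 with shRELB (-2.36 and -0.98). That of miR-3648 with shRELB changes sign (-0.51 and 0.48), and RELA against RELB stays at -2.66 for miR-6821-5p.

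The comparison of shRELA with shRELB spheroids sets no shNeg library and no difference between cultures against another, so it was tested, although all 24 libraries enter its estimate of spread. The spheroids of these groups may also have served in the choice of members. Of the 6 members, miR-6821-5p was lower with shRELA, where it averaged 2.81 ± 0.89 CPM, than with shRELB, where it averaged 17.9 ± 6.62 CPM (SD, n = 4 each). The log2 fold change was -2.66 (SE 0.56, edgeR quasi-likelihood FDR = 0.00105), which is 6.34-fold lower, and all 4 shRELA libraries lay below all 4 shRELB libraries. This was 1 of 6 members called, against 6.63% of all miRNAs called in either direction (3.87% called lower). It was called in all 16 alternative settings tried, with an FDR of 7.63e-08 to 0.00733.

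Levels of miR-4516 were 52.4 ± 7.0 CPM with shRELA and 128 ± 47.9 CPM with shRELB (SD, n = 4 each). The difference of -1.29 (SE 0.46) had an edgeR quasi-likelihood FDR of 0.0510 and was not called, although the groups did not overlap. It was called in 3 of 16 alternative settings, including the fit without spheroid shNeg replicate 1 (FDR = 8.93e-05), a library in neither group that enters the shared estimate of spread. The FDR over the 16 settings ran from 1.54e-07 to 0.224. For miR-3960 the means were 8.70 ± 4.81 and 18.1 ± 2.67 CPM, with a log2 fold change of -1.06 (SE 0.56, edgeR FDR = 0.211) and no overlap. Thus 3 of 6 members had all shRELA libraries below all shRELB libraries, as did 10.4% of all miRNAs.

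The remaining members overlapped between the silenced spheroids. For miR-4488 the means were 11.4 ± 4.77 and 14.7 ± 4.61 CPM, and the log2 fold change was -0.37 (SE 0.53, edgeR FDR = 0.704). For miR-663a and miR-3648 the log2 fold changes were -1.13 (SE 0.75, FDR = 0.336) and -1.13 (SE 0.89, FDR = 0.425) by the same edgeR test. The median over the 6 members was -1.13, and that over all miRNAs -0.10.

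In adherent cells, RELA against RELB silencing gave 0 of 6 members called by edgeR's quasi-likelihood test (10.9% of all miRNAs called in either direction), and 0 of 6 with an unadjusted p below 0.05. DESeq2 and limma also called none. The members held at most 6 counts in an adherent library, and miR-6821-5p held 0 in both groups. These outcomes were nearly fixed by such low counts and do not show that a difference was absent. The difference between cultures of the RELA against RELB comparison was called for 0 of 6 members by edgeR, DESeq2 and limma, against 1.44% of all miRNAs by edgeR. By the edgeR test 1 member, miR-663a, had an unadjusted p below 0.05, with a difference of -2.86 (SE 1.22, edgeR FDR = 0.272). The difference between cultures uses the same low adherent counts. It could not be judged for miR-6821-5p, which had no count in any adherent library of the silenced groups.

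The ratios of members to each other varied between spheroid libraries, and the part of counting error in this was not tested. The ratio of miR-4516 to miR-4488 counts, both matched in 28S, ran from 3.79 to 11.2 over the 12 spheroid libraries, with 6.18 to 7.30 within shNeg. The ratio of miR-4516 to miR-6821-5p ran from 5.05 to 29.8 and that of miR-4488 to miR-6821-5p from 0.680 to 7.50. Pooled over libraries, the latter was 2.42 with shNeg, 4.16 with shRELA and 0.834 with shRELB. Some of these ratios rest on as few as 4 counts of miR-6821-5p, and the highest of miR-4516 to miR-4488 on 17 counts of miR-4488.

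Besides the members, 13 miRNAs in the table shared a run of at least 16 bases with 45S, and 9 of them were tested. In spheroids 8 of 9 were called higher for shNeg, 5 of 9 for shRELA and 7 of 9 for shRELB, against 21.3%, 16.8% and 13.6% of all miRNAs. Some of the 9 matched overlapping bases of 45S, so their calls are not independent. These were miR-10396a-5p with miR-10396b-5p, miR-10396a-3p with miR-10396b-3p, and miR-1268a with miR-1268b. Like the members, most of the 9 passed the filter through their spheroid libraries. Their median log2 fold changes were 4.04, 3.44 and 3.69, and for shNeg without spheroid replicate 1 the median was 3.30, with 8 of 9 called. Among the 9, miR-7704, matched in 28S over 18 bases, had the largest log2 fold change for shNeg, at 8.68. It held 191 counts in spheroid shNeg libraries and 1 in adherent shNeg libraries. Its spheroid level in shNeg replicate 1 was 82.9 CPM, and that in replicates 2 to 4 was 13.3 to 22.1 CPM. Not all matches were near 0 in adherent cells. In the 3′ external transcribed spacer, miR-1268a averaged 7.29 ± 0.98 CPM in adherent and 24.5 ± 16.6 CPM in spheroid shNeg libraries (SD, n = 4). It was still called higher in spheroids for shNeg, shRELA and shRELB, at log2 fold changes of 1.73, 2.10 and 1.27. For miR-663b, in the 5′ spacer, counts were too few to give a direction. Its ratio of spheroid to adherent CPM was 0.50 (counting interval 0.0111 to 3.89) for shNeg, on 1 spheroid and 7 adherent counts. For shRELB it was 2.80 (0.764 to 11.2), on 7 spheroid and 5 adherent counts. The sequence of miR-1268a occurred 36 times in the genome.

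**Figure D3:**
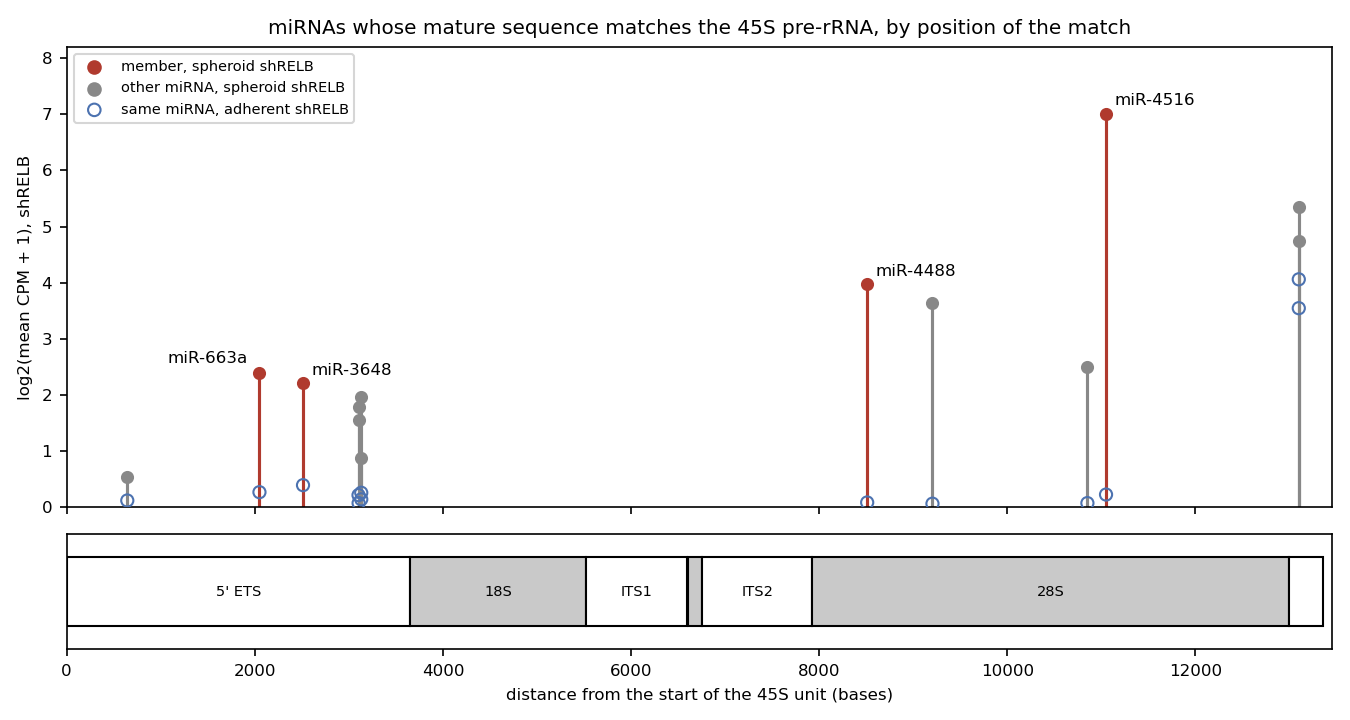
Mean level as log2(CPM + 1) of the 13 tested miRNAs that share at least 16 bases with the 45S precursor, by distance of the match from the start of the unit; stems are spheroid shRELB, open circles adherent shRELB, and the lower bar shows 18S, 5.8S (unlabelled, between ITS1 and ITS2) and 28S in gray with spacers in white. The highest stem is miR-4516 in 28S, with a mean of 128 CPM, and the matches beside the 3′ end of 28S, miR-1268a and miR-1268b, are the ones with an adherent level well above 0.

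Culture also moved with base composition among miRNAs that are not members. The median log2 fold change of spheroid over adherent shNeg was 3.74 for the 19 miRNAs with at least 80% G or C, 2.17 for the 43 with 70% to 80%, 0.42 for the 442 with 50% to 70% and -1.58 for the 287 below 50%. Without spheroid shNeg replicate 1 these medians were 2.90, 1.73, 0.60 and -1.32. With shRELB the medians were 2.0, 1.24, 0.29 and -0.74, and with shRELA 1.76, 1.56, 0.55 and -1.05. Over the 791 miRNAs, Spearman's rho between GC content and log2 fold change was 0.55 for shNeg (0.55 without that library), 0.45 for shRELA and 0.41 for shRELB. These miRNAs share libraries and are not independent replicates. Most of the 19 with at least 80% G or C averaged below 1 CPM in adherent shNeg libraries. Like the members, they passed the filter largely through their spheroid libraries. The part of this filter in the medians, in rho and in the calls that follow was not tested. Among miRNAs with at least 80% G or C and no run of 16 bases with 45S, 6 of 10 were called higher in spheroids for shNeg, 1 of 10 for shRELA and 1 of 10 for shRELB, against 21.3%, 16.8% and 13.6% of all miRNAs. Without spheroid shNeg replicate 1, 3 of 10 were called for shNeg, namely miR-1343-5p, miR-4449 and miR-6724-5p. Sequencing depth differed between the cultures in the same direction in all 3 shRNA groups. The parts that rRNA reads, base composition and depth have in the members' values were not tested.

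**Figure D4:**
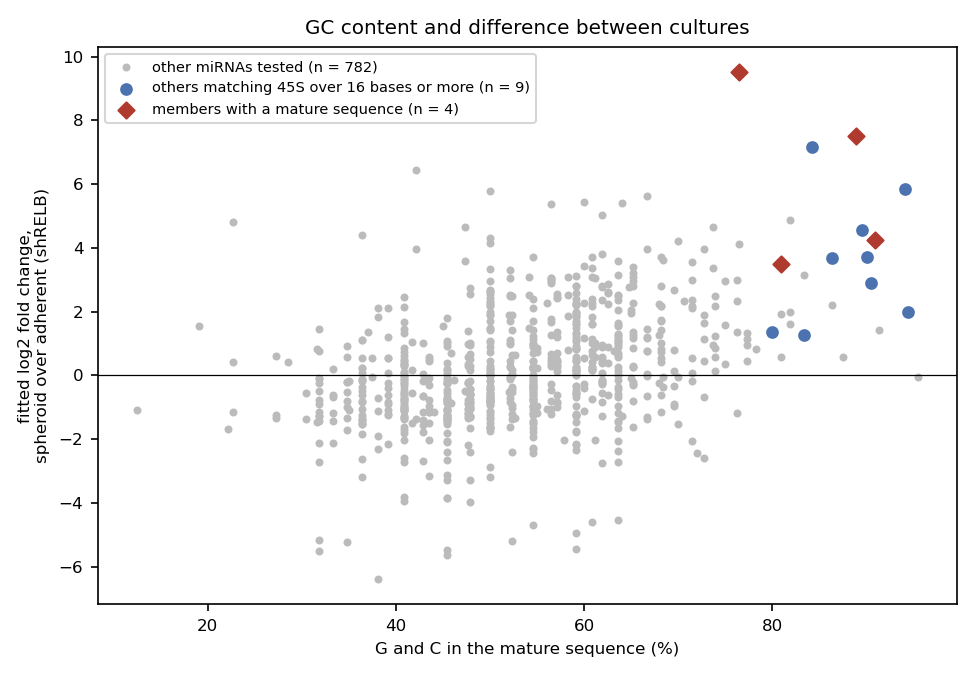
Fitted log2 fold change of spheroid over adherent shRELB libraries against the percentage of G and C in the mature sequence, for the 795 tested miRNAs with a sequence; diamonds are the 4 members with a mature sequence, blue points the 9 other miRNAs that share at least 16 bases with 45S, and gray points the rest. The members lie at 76.5% to 90.9% G or C with values of 3.49 to 9.51.

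The miRNAs most like the members over the 24 libraries, by Spearman's rho with the members' mean standardized log2(CPM + 1), were miR-6734-5p (0.93), miR-423-5p (0.92), miR-769-3p (0.92), miR-744-5p (0.92) and miR-139-3p (0.91). None had a run of over 9 bases with 45S, and their GC content was 52.2% to 65.2%. The mean level of miR-6734-5p was 1.47, 2.40 and 3.47 CPM in adherent shNeg, shRELA and shRELB libraries and 33.3, 11.6 and 19.4 CPM in the spheroid groups in the same order. The mean of miR-423-5p was 1245, 1856 and 2319 CPM in adherent and 20680, 11670 and 18220 CPM in spheroid libraries. Both had the members' order of spheroid groups, shNeg highest and shRELA lowest. Since they were picked for likeness to the members over these same libraries, that order is no separate result. Levels of miR-423-5p were also well counted in adherent cells. The rho of each member with the same mean, of which it is a part, was 0.75 to 0.92.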

How the data were processed

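According to the study's methods, RNA libraries were made with the QIAseq miRNA kit, sequenced as single-end reads, trimmed with Cutadapt and assigned to miRBase with miRDeep2 on GRCh38. The kit adds molecular indices, and the sources used here do not say whether these were collapsed. The authors deposited estimated counts of mature miRNAs without scaling to library size. The table is named as CPM, but totals differ between libraries and most values are whole. Fractional values (3.04% of those above 0, none on a member) were rounded.

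The members and the lists beside them were chosen with earlier results of these data known. After TMM scaling, a model with a term for the 6 groups was fitted by edgeR 4.0.16 (glmQLFit, glmQLFTest) in R 4.3.3, with Benjamini-Hochberg FDRs over the 905 miRNAs that reached 1 CPM in 4 or more libraries. Calls needed an FDR below 0.01 and a fold change above 2. Standard errors were the log2 fold change over the root of F. Ratios of pooled counts had exact 95% binomial intervals, and 0 counts were set to 3 over the group. Library totals ran from 959141 to 8283549. Mature sequences and the 45S units were compared for exact runs on both strands, and genes overlapping hairpins were taken from RefSeq and GENCODE. Besides the members, the text names the other hairpin arm, miR-663b, miR-30e-5p, the 5 non-members most alike over 24 libraries and examples of the listed 45S matches chosen after their values were seen. Alternatives were limma 3.58.1 on log2(CPM + 1), DESeq2 1.42.0, other scalings and filters, an FDR of 0.05, a replicate block, only the groups compared and each library left out in turn.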

Additional observations from a re-analysis of the deposited data

Results flagged for a closer look

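In spheroid shNeg, 1 library lay far from the other 3 for miR-4516 and miR-4488. The level of miR-4516 was 1879 CPM in replicate 1 and 391.8 CPM in the next library, so that the gap took 0.867 of the range of the group. For miR-4488 the levels were 257.4 and 63.4 CPM, with a gap of 0.833 of the range. Both are past Dixon's 95% limit for 4 libraries. Of 20 groups of member values looked at in this way, 2 were past it, and chance alone passes about 1 in 20. The members miR-3960, miR-6821-5p and miR-3648 were also highest in this library, with gaps of 0.802, 0.565 and 0.595 of the range. This library held 432 miRNAs with a count, fewer than the 799 or more of every other library, and its part in these levels was not tested.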

How the results depend on the processing

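No direction of a called value reversed under any alternative. The count of members called for RELA against RELB silencing in spheroids was 1, and it was 2 with no filter, with only the groups compared, and without spheroid shNeg replicate 1 (the last chosen after seeing the data); the member gained was miR-4516. Leaving out 1 library at a time, the members called lower for shRELB against shNeg in spheroids numbered 1 to 3, with 1 in the absence of spheroid shNeg replicate 1. The other ranges were 4 to 4 for shRELA against shNeg in spheroids, 1 to 2 for RELA against RELB in spheroids, 5 to 6 for the cultures with shNeg, 4 to 4 with shRELA and 5 to 6 with shRELB, and 0 to 0 for the adherent comparisons and the difference between cultures. Over 60 same-numbered pairs of libraries, the correlation of deviations from the group means was -0.24 to 0.23, and 2 exceeded 0.1. Pairs with different numbers were not compared, so this cannot tell whether replicate numbers pair the libraries. With the replicate number as a block, shRELB against shNeg in spheroids gave 2 members instead of 3, and the other counts of members did not change. DESeq2, limma and the fit of only the groups compared also gave 2 there. Over all miRNAs, calls for RELA against shNeg in spheroids numbered 137, and 70 with only the groups compared; for RELB against shNeg these were 121 and 50. For RELA against RELB they were 99 and 163 in adherent cells, and for RELA and RELB against shNeg in adherent cells 34 and 57, and 64 and 124. For RELA against RELB in spheroids the 60 calls became 97 without spheroid shNeg replicate 1 and 107 at an FDR of 0.05. The 13 calls of the difference between cultures became 29 with DESeq2 or only the groups compared, 6 with limma, 33 at an FDR of 0.05 and 1 to 33 with 1 library left out (33 without spheroid shNeg replicate 1, otherwise at most 15), and the adherent 99 calls of RELA against RELB became 153 at an FDR of 0.05. The medians and calls of other GC-rich miRNAs and 45S matches without spheroid shNeg replicate 1 were also added after seeing the data. An FDR of 0.05 gave 5 members for the cultures with shRELA. Library totals alone and median-ratio size factors changed no count of members. Members rest on 0 to 6 counts per adherent library, which limits the precision of the ratios between cultures and what the adherent comparisons can show.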
